A study of Mus musculus with 27 samples.

Results

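The 40 genes described here act in the repair of broken DNA and in the signalling that reports it. They were chosen by name, as homologous recombination, Fanconi, end joining, mismatch repair and checkpoint genes, and each symbol was matched to 1 Ensembl identifier of a count table of 48440 genes. All 40 passed the filter on low counts and are among the 18684 genes tested. By role they are 15 recombination genes, 4 genes of the Fanconi anaemia pathway, 8 end joining genes, 5 genes of break signalling on chromatin, 5 checkpoint genes and 3 genes of single-strand break and mismatch repair. The cells were primary fibroblasts from the lungs of wild-type C57BL/6 mice, grown in 3% oxygen, and total RNA was sequenced. KU60019, an inhibitor of the ATM kinase, was given at 3 uM for 15 d or for 35 d, and its vehicle, dimethyl sulphoxide (DMSO), for the same times. Cells of 4 further groups had the same treatment for 15 d or 35 d and then 20 d without it, and are called removed. A further group was exposed to X-rays (10 Gy) and collected 10 d afterwards. According to the series' design text the irradiated cells served as the positive control for senescence. Each of the 9 groups has 3 libraries, called r705, r715 and r716 here after the number in their titles, and the labels do not say what these numbers stand for. No source used here says that the 3 libraries came from separate animals, so p-values measure the spread between these libraries, which may be technical.

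ATM is a kinase that double-strand breaks activate. The Mre11-Rad50-Nbn complex brings it to the ends, it phosphorylates the histone variant H2AX, and Mdc1, Rnf8, Rnf168 and Trp53bp1 then gather on the marked chromatin. The break is sealed either by end joining, which works throughout the cell cycle, or by homologous recombination, which copies the sister chromatid and so works in S and G2 phase. Transcripts of many recombination and Fanconi genes are known to be made mainly in cycling cells, while the Ku and ligase genes of end joining are made in resting cells too. Senescence is a lasting exit from the cycle.

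The libraries held 20659745 to 50859493 counted reads, with a median of 31265114. Levels below are CPM, the counts scaled to library size by edgeR, and comparisons between genes use TPM, which also accounts for length. Fibroblast markers were high in every library, with a summed level of 12290 to 63380 CPM over 10 genes, and none of them was at 0 in any group. They differed between groups: they summed to 35030 to 63380 CPM in DMSO 15 d, DMSO 15 d removed and DMSO 35 d, and to 12290 to 31310 CPM in the KU60019, X-ray and DMSO 35 d removed groups. Of the 10, 5 were called lower and 1 higher in KU60019 15 d, and 6 lower and 2 higher in KU60019 35 d. In KU60019 15 d removed 7 were lower and 0 higher, and after X-rays 5 were lower and 1 higher. In DMSO 35 d removed against DMSO 35 d, 8 were lower and 2 higher. In KU60019 35 d removed 4 were lower and 4 higher. Macrophage, endothelial, epithelial and Schwann cell markers summed to at most 122.3, 112.6, 71.55 and 117.3 CPM in any library, and Ptprc, Adgre1, Itgam, Fcgr1, Epcam, Cdh1, Krt8, Sftpc and Nkx2-1 stayed under 1 CPM on average in every group. The other macrophage markers averaged at least 1 CPM in DMSO 15 d, and the epithelial marker Krt19 did so in every group. Endothelial markers were highest in DMSO 15 d, at 38.41 to 112.6 CPM against 12.14 to 17.05 CPM in KU60019 15 d and 19.7 to 24.83 CPM after X-rays, with 8 of 10 genes called lower in each of those comparisons. They were lower still in vehicle at 6.445 to 7.901 CPM in DMSO 35 d and 7.585 to 10.99 CPM in DMSO 15 d removed. In each of these, 9 of 10 genes were called lower than in DMSO 15 d. Against DMSO 35 d, irradiated cells had 6 of 10 called higher and 0 lower. Epithelial markers were highest in DMSO 35 d removed, at 24.3 to 71.55 CPM, and Schwann cell markers in KU60019 35 d, at 27.32 to 117.3 CPM, with 4 of 6 tested genes called higher there and in both KU60019 removed groups against their DMSO groups. The part of these cells in the results below was not tested. The proliferation marker Mki67 differed far more. Its mean was 391.6 ± 77.2 CPM (SD, n = 3) in the DMSO 35 d removed group, between 10.7 and 27.6 CPM in the other vehicle groups and in 3 of the KU60019 groups, 3.69 ± 0.99 CPM in KU60019 35 d removed and 1.01 ± 0.30 CPM after X-rays. A list of 25 mitosis genes gave the same picture, at 1972 to 2806 CPM in the DMSO 35 d removed libraries, 77.55 to 101.8 CPM in KU60019 35 d removed and 55.95 to 64.85 CPM after X-rays. In all the other groups it lay between 153.4 and 433.4 CPM. The DMSO 35 d removed library r705 also had the lowest scaling factor, 0.694, where the others lay between 0.879 and 1.12, and 7.37% of its reads fell on 5 genes. Libraries also differed in how level goes with gene length: Spearman's rho between the 2, across genes, was 0.313 and 0.27 in DMSO 15 d libraries r705 and r716 but -0.093 in library r715 of that group. The 3 irradiated libraries had -0.133, -0.0284 and 0.0823 and the KU60019 15 d libraries -0.0173, -0.126 and -0.0835. It was 0.185 to 0.287 in DMSO 15 d removed and -0.231 to -0.0474 in KU60019 15 d removed. In DMSO 35 d it was 0.0629 to 0.308, and in KU60019 35 d -0.102 to 0.0223. The trend thus ran with treatment in these pairs. DMSO 35 d removed had -0.195 to -0.0896 and KU60019 35 d removed -0.217 to -0.065.

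Per length, the most abundant members in DMSO 15 d cells were H2afx (27.8 TPM), Xrcc1 (27.4 TPM), Parp1 (19.2 TPM), Xrcc6 (15.7 TPM) and Nbn (13.9 TPM). The lowest was Atrip, at 0.11 TPM and 1 to 21 reads per library, so its fold changes are poorly measured. Highest and lowest group means of a member differed by 1.43 times (Xrcc6) to 27.95 times (Rad54l), with a median of 3.0 times. The DMSO 35 d removed cells held the highest mean of 30 of the 40 members, and irradiated cells held the lowest mean of 13, KU60019 15 d removed cells of 9 and KU60019 35 d removed cells of 6.

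**Figure D1:**
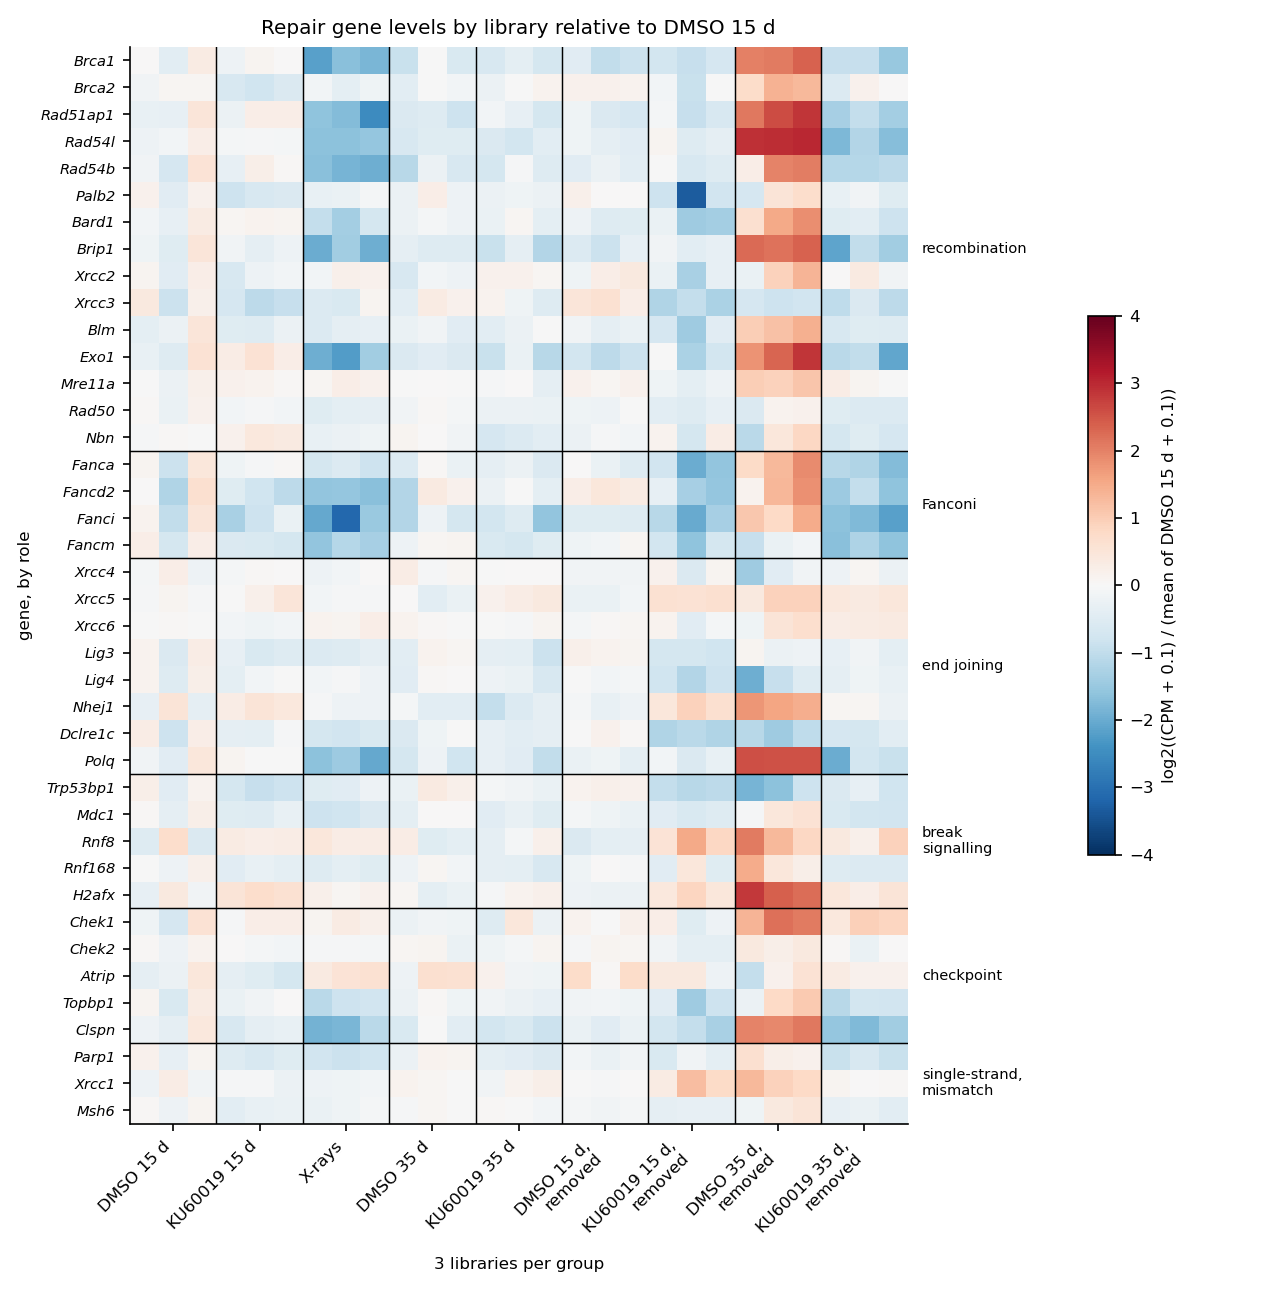
Level of each of the 40 genes in each of the 27 libraries, as log2 of CPM plus 0.1 relative to the mean of the DMSO 15 d group, with genes in rows by role and 3 libraries (r705, r715, r716) per group in columns. The DMSO 35 d removed columns hold the highest mean of 30 genes, and the X-ray columns the lowest mean of 13.

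In irradiated cells 17 of the 40 genes were lower than in DMSO 15 d and none was higher (edgeR quasi-likelihood test over all genes, Benjamini-Hochberg adjusted p under 0.05). None of the 9 groups is an unirradiated control collected at the same time. The 2 groups compared may therefore also differ in vehicle and in time in culture, and the part of either was not tested. Of all 18684 genes, 16.8% were called lower, 14.1% higher and 30.9% in either direction. At an unadjusted p under 0.05 the counts for the members were 0 higher and 19 lower, and DESeq2 called 0 higher and 18 lower. The genes that fell were 8 of 15 recombination genes (Brca1, Rad51ap1, Rad54l, Rad54b, Bard1, Brip1, Exo1 and Rad50), 3 of 4 Fanconi genes (Fancd2, Fanci and Fancm), 2 of 8 end joining genes (Polq and Dclre1c), Mdc1, the checkpoint genes Topbp1 and Clspn, and Parp1. The median log2 change was -0.01 over all genes, -0.42 over the 40 members, -0.43 over the recombination genes, -1.55 over the Fanconi genes and -0.14 over the end joining genes. Libraries of the 2 groups did not overlap for 16 of the 17, Dclre1c being the exception, while 43.8% of all genes showed no overlap. All 25 mitosis genes fell in the same comparison, with a median log2 change of -2.88, and the part of fewer cycling cells in the members' decrease was not tested. In RNA from whole cultures, fewer cells that make a transcript and less of it per cell cannot be told apart.

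Against DMSO 35 d as control, an alternative chosen after seeing the data, 15 members were lower in irradiated cells and none was higher. Of all genes 14.2% were lower, 12.9% higher and 27.1% called in either direction. Without DMSO 15 d library r715 the count was 21 lower and 1 higher, adding Trp53bp1 (log2 -0.57), Fanca (-1.02), Lig3 (-0.69) and Xrcc3 (-0.61) as lower and Rnf8 (0.91) as higher. Of the 17 genes, 12 kept their call whichever library was left out. Bard1 lost it without DMSO 15 d r716 (log2 -0.83) or X-ray r715 (-0.87), Fancd2 without DMSO 15 d r716 (-1.23), and Topbp1 without DMSO 15 d r716 (-0.68) or X-ray r705 (-0.80). Dclre1c lost it in 4 of 6 and Rad50 in 5 of 6 such fits, with log2 changes of -0.54 to -0.71 and -0.32 to -0.44. Without the filter on low counts, Dclre1c (-0.71) and Rad50 (-0.41) were not called. Under limma on log2(TPM + 1), 11 of the 17 kept their call and Rnf168 (-0.58) was added as lower. Bard1 (-0.51), Fancd2 (-0.61) and Rad50 (-0.53) were not called there, and the rest were not tested. With the trend on gene length removed, all 17 were called.

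**Figure D2:**
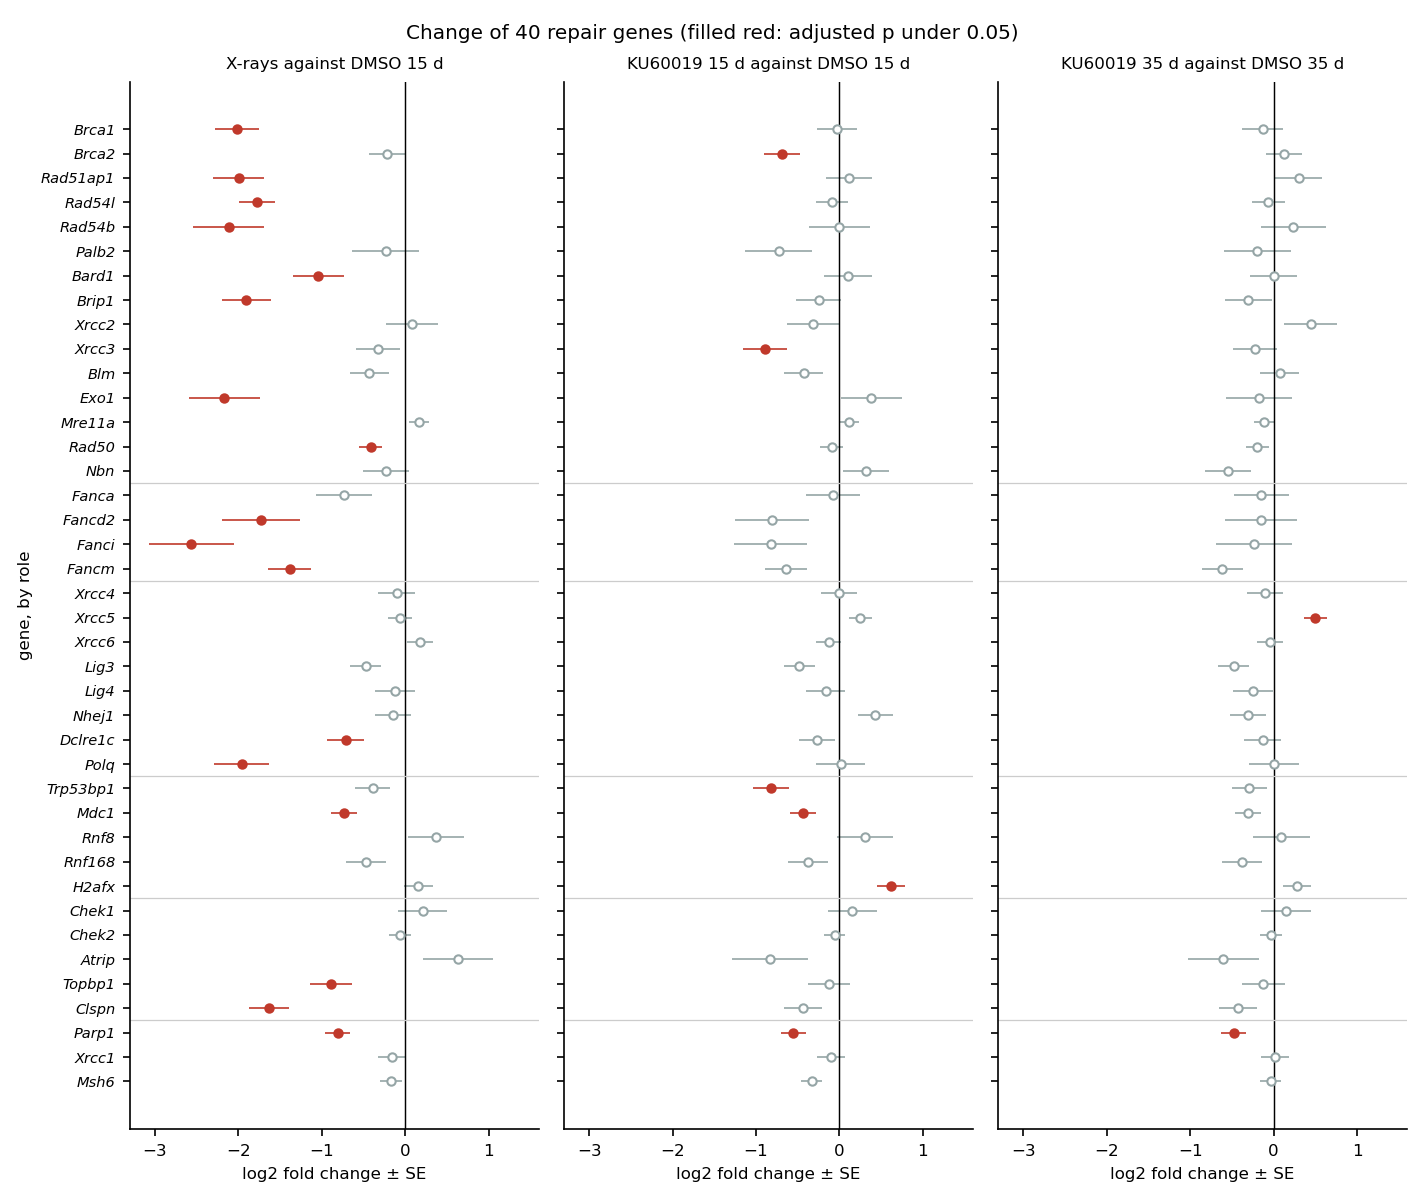
Log2 fold change with its standard error for the 40 genes, by role from top to bottom, after X-rays and after 15 d or 35 d of KU60019, each against a DMSO group (DMSO 15 d, DMSO 15 d, DMSO 35 d). The X-ray group has no control of its own time. Filled red points have an adjusted p under 0.05: 17 in the left panel, all below 0, 6 in the middle and 2 on the right.

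KU60019 for 15 d changed 6 of the 40 genes, fewer in proportion than the 30.3% of all genes called in that comparison. H2afx, the histone variant that ATM marks at breaks, rose 1.53-fold (log2 0.62 ± 0.17 SE, adjusted p = 0.00903). The genes that fell were Trp53bp1, which steers breaks to end joining (-0.82 ± 0.21, adjusted p = 0.00556), Parp1, which senses single-strand breaks (-0.55 ± 0.15, adjusted p = 0.00637), Xrcc3 (-0.90 ± 0.26, adjusted p = 0.0131), Brca2 (-0.68 ± 0.22, adjusted p = 0.0203) and Mdc1 (-0.44 ± 0.15, adjusted p = 0.0364). Of all genes 13.2% were called higher and 17.1% lower. The median log2 change of the members was -0.13, and -0.02 over all genes. With the trend of level on gene length removed, the member median was -0.05. Libraries overlapped between the groups for Xrcc3 and Mdc1 and not for the other 4, where 44.6% of all genes showed no overlap. None of the 8 end joining, 4 Fanconi and 5 checkpoint genes passed the test (edgeR). At an unadjusted p under 0.05 the counts over all members were 1 higher and 8 lower, and DESeq2 called 1 higher and 8 lower. Of the mitosis genes 0 of 25 were called higher and 2 lower.

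Of these 6 calls, 2 (Trp53bp1 and Parp1) held whichever library was left out. H2afx lost its call without DMSO 15 d r705 (log2 0.47), Brca2 without DMSO 15 d r716 (-0.65) or KU60019 15 d r715 (-0.61), Xrcc3 without DMSO 15 d r705 (-0.66), DMSO 15 d r716 (-0.78) or KU60019 15 d r715 (-0.80), and Mdc1 without any of 4 libraries (-0.30 to -0.41). Leaving out DMSO 15 d r715 gave 3 higher and 11 lower, adding Nhej1, Rnf8, Dclre1c, Fancd2, Fanci, Lig3, Fancm and Msh6. Without DMSO 15 d r705 there were 0 higher and 3 lower, and without DMSO 15 d r716 or KU60019 15 d r715 there were 2 lower. With the trend of level on gene length removed, 1 gene was higher and 3 were lower, and Brca2 (-0.44) and Mdc1 (-0.27) were no longer called.

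After 35 d of KU60019, 2 members passed the test against DMSO 35 d, where 18.1% of all genes did. Xrcc5, which encodes Ku80 of the ring that caps broken ends, rose 1.42-fold (log2 0.50 ± 0.14 SE, adjusted p = 0.0155), and Parp1 fell (-0.48 ± 0.15, adjusted p = 0.0249). Of all genes 9.7% were higher and 8.4% lower. For neither gene did the libraries of the groups overlap (44.4% of all genes), yet neither kept its call in every fit with 1 library left out. Xrcc5 lost it without DMSO 35 d r715 (0.42), DMSO 35 d r716 (0.49) or KU60019 35 d r716 (0.44), and Parp1 without DMSO 35 d r715 (-0.40), DMSO 35 d r716 (-0.42), KU60019 35 d r715 (-0.49) or KU60019 35 d r716 (-0.43). Without DMSO 35 d r705 there were 2 lower, Lig3 (-0.62) being added. Without the filter on low counts neither was called (Xrcc5 0.51, adjusted p = 0.0512, and Parp1 -0.47, adjusted p = 0.0597), and with the length trend removed Parp1 was not (-0.40, adjusted p = 0.0509). At an unadjusted p under 0.05, 1 member was higher and 3 were lower. Under limma on log2(TPM + 1), Xrcc5 was not called (0.14), while Parp1 and 4 others were lower. A test of the difference between the KU60019 effects at 35 d and 15 d called 0 of 40 members in either direction with edgeR, beside 11.7% of all genes (7.11% positive, 4.58% negative). At an unadjusted p under 0.05, 1 member was called higher and 2 lower in that test, DESeq2 called Brca2 in the positive direction (0.83), and limma on log2(TPM + 1) called Nhej1 in the negative (-0.76). Without DMSO 15 d r715, edgeR called Xrcc3 (0.97) and Nhej1 (-1.08). Between the 2 times in vehicle, DMSO 35 d against DMSO 15 d, 0 of 40 members passed the test by edgeR or DESeq2, beside 1.56% of all genes (0.455% higher, 1.11% lower), with 0 higher and 3 lower at an unadjusted p under 0.05.

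Most of these genes changed in cells taken off vehicle after 35 d. In the DMSO 35 d removed group, 27 of 40 members were higher and 5 lower than in DMSO 35 d, where 31.5% of all genes were higher, 32.6% lower and 64.1% called in either direction. The median log2 change was 1.00 for the members and 1.53 for the recombination genes. Rad54l rose 12-fold (log2 3.59 ± 0.20 SE), Polq 9.56-fold (3.26 ± 0.30), Rad51ap1 9.58-fold (3.26 ± 0.30), H2afx 6.44-fold (2.69 ± 0.18), Brip1 (2.80 ± 0.28) and Brca1 (2.66 ± 0.25), all with adjusted p at or under 3.94e-08. The 5 that fell were Trp53bp1 (-1.50 ± 0.22), Dclre1c (-0.97 ± 0.23), Lig4 (-0.90 ± 0.25), Xrcc3 (-0.83 ± 0.27) and Xrcc4 (-0.68 ± 0.22), of which 3 are end joining genes. In the same comparison 24 of 25 mitosis genes rose and none fell, with a median log2 change of 3.12. The part of proliferation in the rise of the repair genes was not tested. Libraries did not overlap for 28 of the 32 called genes, against 62.8% of all genes.

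On the scale of TPM the centre of all genes moves in this comparison, by -0.68 in log2, and limma on log2(TPM + 1) called 11 members higher and 11 lower among the 35 it tested. The direction of Parp1 (-0.47), Chek2 (-0.42), Topbp1 (-0.14), Rnf168 (-0.04) and Mdc1 (-0.31) reversed there, and the member median was 0.10. Of the 32 called by edgeR, 24 kept their call whichever library was left out. Without DMSO 35 d removed library r705, Parp1 (0.19), Rnf168 (0.41) and Xrcc4 (-0.40) were no longer called. Without library r716 of that group Chek2 (0.33), Fancd2 (0.96), Topbp1 (0.50) and Mdc1 (0.35) were lost, and without library r715 Topbp1 (0.67). Leaving out DMSO 35 d r705 ended the calls of Parp1 (0.25), Xrcc4 (-0.56) and Mdc1 (0.36), DMSO 35 d r715 that of Xrcc3 (-0.67) and DMSO 35 d r716 that of Chek2 (0.26).

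KU60019 35 d removed cells were compared with DMSO 35 d removed cells, so the control of this comparison is the group with the highest mitosis genes. Here 31 of 40 members were lower and 3 higher, beside 24.5% and 24.4% of all genes (48.9% in either direction). The median log2 change was -1.16 for the members, -1.81 for the recombination genes and -2.78 for the Fanconi genes. Rad54l had a log2 change of -4.71 ± 0.22 (SE, adjusted p = 3.17e-13), Polq of -3.88 ± 0.32, Rad51ap1 of -3.87 ± 0.31, Brip1 of -3.83 ± 0.30, Clspn of -3.64 ± 0.25 and Brca1 of -3.35 ± 0.26. Trp53bp1 (0.80 ± 0.22), Lig4 (0.73 ± 0.25) and Dclre1c (0.62 ± 0.23) were higher. All 25 mitosis genes were lower in the same comparison, with a median of -5.16. Libraries did not overlap for 29 of the 34 called genes (49.6% of all genes), and 26 of the 34 kept their call whichever library was left out. Without DMSO 35 d removed library r705, 1 gene was higher, since Dclre1c (0.65) and Lig4 (0.44) were no longer called, nor was Rnf8 (-0.54). Dclre1c was also lost without DMSO 35 d removed r715 (0.50) or KU60019 35 d removed r716 (0.53). Xrcc5 lost its call in 5 of 6 such fits (-0.26 to -0.36) and Xrcc2 in 4 (-0.37 to -0.73), Nbn (-0.48) and Rad50 (-0.35) without DMSO 35 d removed r716, Chek2 (-0.30) without KU60019 35 d removed r715, and Rnf8 also without KU60019 35 d removed r705 (-0.89) or r715 (-0.80).

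A further 2 controls, chosen after seeing the data, were used for KU60019 35 d removed cells. Against DMSO 35 d, 15 members were lower and 3 higher, beside 50.2% of all genes called. The 3 higher were Xrcc5 (log2 0.64 ± 0.14 SE), Chek1 (0.99 ± 0.30) and H2afx (0.60 ± 0.17), and those lower were led by Fancm (-1.54 ± 0.26), Parp1 (-0.82 ± 0.15) and Clspn (-1.28 ± 0.24). Against KU60019 35 d, the same treatment before removal, edgeR called 4 lower and 0 higher, beside 12.6% of all genes (5.77% higher, 6.82% lower): Rad54l (-1.06 ± 0.22), Clspn (-0.85 ± 0.24), Fancm (-0.93 ± 0.26) and Rad51ap1 (-0.91 ± 0.30). In that comparison 21 of 25 mitosis genes were lower. Under limma on log2(TPM + 1), against DMSO 35 d removed, 16 members were lower and 3 higher, and Xrcc5 (0.13), Chek2 (0.06) and Rad50 (0.003) changed sign.

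**Figure D3:**
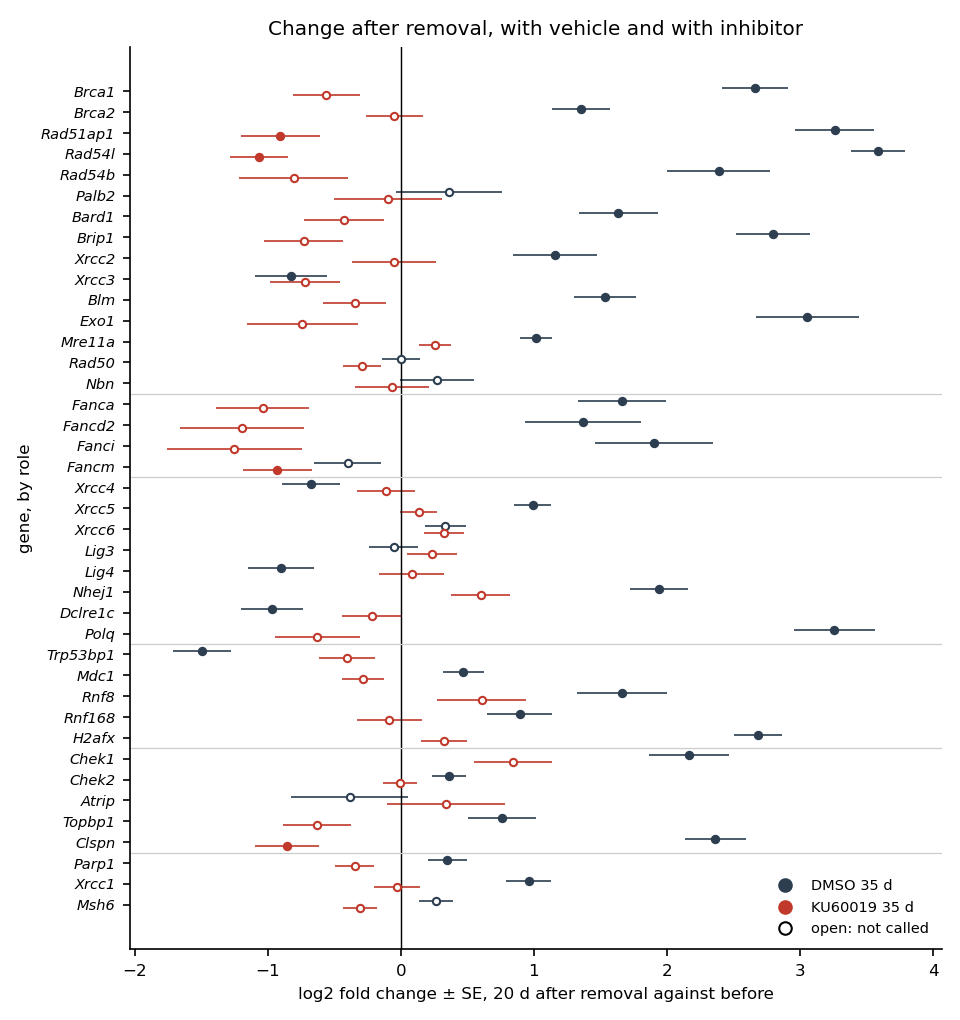
Log2 fold change with its standard error of the 40 genes 20 d after removal against before it, in cells that had 35 d of DMSO (dark) or of KU60019 (red). Filled points have an adjusted p under 0.05: 32 with DMSO, 27 of them right of 0, and 4 with KU60019, all left of 0.

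The KU60019 effect itself was tested against that before removal. The effect at 35 d removed differed from that at 35 d for 28 members, 2 in the positive direction (Trp53bp1 and Lig4) and 26 in the negative, beside 32.4% of all genes. Of the 28, 23 were called whichever library was left out, and Lig4 was lost in 6 of those 12 fits (0.69 to 1.01), so that 1 gene was left in the positive direction. Without 1 library at a time those in the negative direction numbered 23 to 27. At 15 d the same test called 4 members, beside 25.4% of all genes: Xrcc1 (0.94 ± 0.24 SE, adjusted p = 0.00793) and Xrcc5 (0.59 ± 0.20, adjusted p = 0.0337) in the positive direction, Dclre1c (-1.0 ± 0.32, adjusted p = 0.0249) and Mre11a (-0.51 ± 0.17, adjusted p = 0.0322) in the negative. Of these 4 only Xrcc1 was called whichever of the 12 libraries was left out; the range over those fits was 1 to 3 higher and 0 to 4 lower, and each of the 12 libraries except DMSO 15 d r716 moved at least 1 of the 2 counts by more than 1.5 times when left out.

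Cells taken off KU60019 after 15 d differed from cells taken off DMSO in 18 members, 5 higher and 13 lower, where 48.7% of all genes were called (24.7% higher, 24% lower). Unlike the removed groups of the 35 d arm, these 2 groups had mitosis sums that overlapped, at 178.0 to 244.0 CPM and 227.0 to 258.6 CPM. Of the 25 mitosis genes 2 were called higher and 3 lower. Libraries did not overlap for 13 of the 25, beside 56.8% of all genes. Mki67 was higher after KU60019, at 23.2 to 29.43 CPM against 16.73 to 19.56 CPM. The higher members were Xrcc5 (log2 0.84 ± 0.14 SE, adjusted p = 0.000204), Xrcc1 (0.84 ± 0.17), H2afx (0.83 ± 0.17), Nhej1 (0.91 ± 0.21) and Rnf8 (1.48 ± 0.34). The median log2 change was -0.32 over the members and -0.01 over all genes. With the trend of level on gene length removed, the member median was -0.12. The lower ones were 3 of 15 recombination genes (Xrcc3, Palb2 and Mre11a), 3 of 4 Fanconi genes (Fanca, Fancd2 and Fancm), the end joining genes Dclre1c, Lig4 and Lig3, Trp53bp1, and the checkpoint genes Clspn, Chek2 and Topbp1. Xrcc3 had the lowest adjusted p (-1.62 ± 0.27, adjusted p = 0.000197), followed among those lower by Trp53bp1 (-1.21 ± 0.21) and Dclre1c (-1.27 ± 0.23). The recombination genes Brca1 (-0.02 ± 0.25), Rad51ap1 (-0.04 ± 0.29), Rad54b (0.01 ± 0.39) and Polq of end joining (-0.05 ± 0.30), which fell after X-rays, were not called here. For all 18 called genes the libraries of the groups did not overlap, as for 56.8% of all genes.

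The 5 higher calls held whichever library was left out, but 1 library carried part of the lower ones. Without KU60019 15 d removed library r715 the count fell to 7, as Fanca (-0.89), Fancd2 (-1.18), Mre11a (-0.34), Topbp1 (-0.49), Clspn (-0.67) and Chek2 (-0.32) were no longer called. Clspn, Chek2, Fancd2 and Topbp1 lost their calls in other such fits as well. That library also held the lowest Palb2 value of the series, from 2 reads, and the highest Xrcc1, Rnf8 and Rnf168 values of its group. Under limma on log2(TPM + 1), where the centre of all genes moved by -0.47, 1 member was higher and 21 were lower: Xrcc5 (0.25), Nhej1 (0.28), Xrcc1 (0.22) and H2afx (0.24) were not called there. With the trend on gene length removed, Clspn (-0.40), Mre11a (-0.19) and Topbp1 (-0.39) were not called. With KU60019 15 d as control, 2 were higher and 8 lower beside 40.3% of all genes, and with DMSO 35 d, 5 were higher and 15 lower beside 46.7% (both controls chosen after seeing the data).

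Coordinates of genes are those of GRCm38. Among the recombination genes, Brca1 (ENSMUSG00000017146, chr11:101488764-101551955, minus strand), whose protein promotes recombination over end joining, had the values 2.93, 2.15 and 3.66 CPM in DMSO 15 d and 0.563, 0.847 and 0.754 CPM after X-rays. It had 1.53, 2.89 and 1.89 CPM in DMSO 35 d, 12, 12.5 and 15.4 CPM in DMSO 35 d removed and 1.5, 1.47 and 0.961 CPM in KU60019 35 d removed. The 3 irradiated libraries were the lowest of all 27 and the 3 DMSO 35 d removed libraries the highest, without overlap with any other group. DMSO 15 d removed against DMSO 15 d was a comparison added after seeing the data, and no alternative fit was run for it. There edgeR called Brca1 lower (-0.80 ± 0.24 SE, adjusted p = 0.0486), the only member called, beside 7.02% of all genes. The fold of Brca1 after X-rays was 0.246 (log2 -2.02 ± 0.26, adjusted p = 6.03e-06).

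The 250 bases before the RefSeq start of 4 genes that fell after X-rays are shown because they hold letters known from the promoters of cell cycle genes. They come from RefSeq, build GRCm38.p6, and run 5′ to 3′ on the strand of the gene; capitals mark CCAAT or its complement ATTGG, and the E2F letters TTCCCGC or GCGGGAA.
Brca1 chr11:101551956-101552205 (minus strand): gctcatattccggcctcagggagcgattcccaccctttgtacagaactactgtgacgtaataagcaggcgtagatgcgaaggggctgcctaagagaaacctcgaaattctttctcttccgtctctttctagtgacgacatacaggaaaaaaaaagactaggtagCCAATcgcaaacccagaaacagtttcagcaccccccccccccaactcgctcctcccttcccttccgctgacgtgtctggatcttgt
Clspn chr4:126556730-126556979 (plus strand): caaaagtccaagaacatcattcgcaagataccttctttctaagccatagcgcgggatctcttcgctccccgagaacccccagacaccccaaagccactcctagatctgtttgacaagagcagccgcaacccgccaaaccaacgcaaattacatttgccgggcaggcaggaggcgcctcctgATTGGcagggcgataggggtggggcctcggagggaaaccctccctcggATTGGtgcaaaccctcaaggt
Brip1 chr11:86201194-86201443 (minus strand): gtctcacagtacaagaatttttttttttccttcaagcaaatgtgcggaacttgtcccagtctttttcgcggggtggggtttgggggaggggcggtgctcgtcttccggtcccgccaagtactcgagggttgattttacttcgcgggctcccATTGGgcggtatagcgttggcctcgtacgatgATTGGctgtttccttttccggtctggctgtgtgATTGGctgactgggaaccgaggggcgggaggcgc
Mdc1 chr17:35841248-35841497 (plus strand): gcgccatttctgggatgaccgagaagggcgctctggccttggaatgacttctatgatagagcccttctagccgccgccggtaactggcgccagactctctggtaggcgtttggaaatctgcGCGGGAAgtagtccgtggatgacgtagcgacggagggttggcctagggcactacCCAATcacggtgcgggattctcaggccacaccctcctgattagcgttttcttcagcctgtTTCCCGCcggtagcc
Brip1 holds CCAAT 3 times, Clspn 2 times and Brca1 1 time, and Mdc1 holds both kinds of motif. The Clspn window ends at 126556979, past the gene start of 126556935 given below. By those coordinates its last bases, with the second ATTGG, lie inside the gene. The motifs searched, on both strands, were the CCAAT box, the cell cycle homology region TTTGAA or TTCGAA, and the E2F core, for which TTCCCGC was searched first, with TTGGCGC searched as another form, with TTCGCGC searched likewise and with TTGCCGC searched likewise. An ATTGG that runs on into TTGGCGC counts for both CCAAT and E2F. Of 35 windows of the 33 members with an entry, 54.3% held CCAAT, 37.1% an E2F core and 8.57% the cell cycle homology region. Over all 32851 promoters the shares were 33.8%, 7.89% and 17.1%, and the median GC content was 52.4% against 56.8% for the members. The 14 windows of genes that fell after X-rays held CCAAT in 64.3% and E2F in 28.6%, and the 21 of genes not called 47.6% and 42.9%. A match is only a run of letters and shows no binding.

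Rad51ap1 (ENSMUSG00000030346, chr6:126923050-126939587, minus strand), whose protein promotes the pairing of DNA strands in recombination, was highest and lowest in the same groups as Brca1. It had 2.62, 2.62 and 4.6 CPM in DMSO 15 d, 1.02, 0.905 and 0.488 CPM after X-rays, 14.5, 20.6 and 24.4 CPM in DMSO 35 d removed and 1.24, 1.63 and 1.23 CPM in KU60019 35 d removed. Rad54l (ENSMUSG00000028702, chr4:116094264-116123690, minus strand), a motor protein of recombination that moves along DNA, had 1.62, 1.72 and 2.27 CPM in DMSO 15 d, 0.536, 0.526 and 0.577 CPM after X-rays, 14.9, 15.1 and 15.9 CPM in DMSO 35 d removed and 0.463, 0.776 and 0.507 CPM in KU60019 35 d removed. For both genes the irradiated libraries lay below every DMSO 15 d library, and the DMSO 35 d removed libraries above all others. Brip1 (ENSMUSG00000034329, chr11:86058138-86201193, minus strand), the helicase that binds Brca1, had 2.04, 1.65 and 3.29 CPM in DMSO 15 d and 0.51, 0.818 and 0.532 CPM after X-rays, 11.5, 10.8 and 12.2 CPM in DMSO 35 d removed and 0.463, 1.12 and 0.828 CPM in KU60019 35 d removed. After X-rays the log2 change was -2.0 ± 0.31 (SE) for Rad51ap1, -1.78 ± 0.21 for Rad54l and -1.91 ± 0.30 for Brip1.

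Bard1, the partner of Brca1 in a ubiquitin ligase, had group means of 1.48 (X-ray) to 8.26 (DMSO 35 d removed) CPM. The exonuclease gene Exo1 ranged over 0.305 (X-ray) to 7.35 (DMSO 35 d removed) CPM, the motor gene Rad54b over 0.302 (X-ray) to 4.31 (DMSO 35 d removed) CPM and the helicase gene Blm over 1.9 (KU60019 15 d removed) to 7.93 (DMSO 35 d removed) CPM. All 4 were highest in DMSO 35 d removed, and 3 of them lowest after X-rays. The count of Rad54b is uncertain, since Fsbp shares exons with it on the same strand. Brca2, which acts after the ends are cut back, ranged over 2.64 (KU60019 15 d) to 9.62 (DMSO 35 d removed) CPM, Palb2, which joins Brca1 to Brca2, over 0.67 (KU60019 15 d removed) to 2.14 (DMSO 35 d removed) CPM, and Xrcc2, which also acts in recombination, over 2.26 (KU60019 15 d removed) to 6.08 (DMSO 35 d removed) CPM. In KU60019 15 d the Brca2 values were 2.69, 2.39 and 2.84 CPM and in DMSO 15 d 3.81, 4.44 and 4.47 CPM, all lower with the inhibitor.

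Xrcc3 (ENSMUSG00000021287, chr12:111803192-111813873, minus strand), a recombination gene too, did not follow this order. Its values were 12.5, 5.27 and 11.1 CPM in DMSO 15 d, 5.95, 4.56 and 5.04 CPM in KU60019 15 d, 13.4, 14.8 and 11.6 CPM in DMSO 15 d removed and 4.14, 4.88 and 3.92 CPM in KU60019 15 d removed. In the 35 d arm it had 5.93, 5.43 and 5.66 CPM in DMSO 35 d removed and 4.75, 6.4 and 4.57 CPM in KU60019 35 d removed, where the groups overlapped. The 15 d groups before removal overlapped only through DMSO 15 d library r715. Klc1 overlaps its exons on the opposite strand, and the sources used here do not give the strand setting of the counting.

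The genes of the end-sensing complex spanned narrower ranges. Rad50 (ENSMUSG00000020380), its coiled-coil ATPase, had 23.8, 19 and 25.9 CPM in DMSO 15 d, 16.4, 17.4 and 17.7 CPM after X-rays and 16.2, 15.6 and 15.6 CPM in KU60019 35 d removed. Group means were 15.8 (KU60019 35 d removed) to 22.9 (DMSO 15 d) CPM for Rad50, 11.9 (KU60019 15 d removed) to 28.6 (DMSO 35 d removed) CPM for its nuclease Mre11a and 11.4 (KU60019 35 d removed) to 21.9 (KU60019 15 d) CPM for Nbn, which binds ATM. Mre11a rose in DMSO 35 d removed (log2 1.02 ± 0.12 SE), while Rad50 (0.00 ± 0.14) and Nbn (0.27 ± 0.28) were not called. The Nbn libraries of that group spread widely, at 8.17, 23.8 and 30.9 CPM.

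Of the Fanconi genes, whose products unhook crosslinks between the strands, Fancd2 (ENSMUSG00000034023, chr6:113531682-113597017, plus strand) had 2.53, 1.04 and 3.92 CPM in DMSO 15 d, 1.75, 1.41 and 1.17 CPM in KU60019 15 d and 0.778, 0.789 and 0.71 CPM after X-rays. Fancd2 had 3.02, 3.46 and 3.19 CPM in DMSO 15 d removed, 1.99, 0.944 and 0.794 CPM in KU60019 15 d removed, 2.79, 6.44 and 9.15 CPM in DMSO 35 d removed and 0.849, 1.24 and 0.748 CPM in KU60019 35 d removed. The irradiated and the KU60019 35 d removed libraries were low throughout, and DMSO 15 d spread widely, its library r715 lying under all KU60019 15 d libraries. Fanci, with which Fancd2 forms a clamp on DNA, ranged over 0.233 (X-ray) to 3.03 (DMSO 35 d removed) CPM, and Fanca of the core complex over 0.946 (KU60019 15 d removed) to 6.79 (DMSO 35 d removed) CPM. Fancm, the translocase that finds stalled forks, ranged over 2.3 (KU60019 35 d removed) to 6.69 (DMSO 35 d) CPM and was the only Fanconi gene not highest in DMSO 35 d removed. All 4 were lower in KU60019 35 d removed than in DMSO 35 d (-1.19 to -1.54).

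End joining genes differed among themselves. Polq (ENSMUSG00000034206, chr16:37011786-37095417, plus strand), the polymerase of the microhomology route, which acts on ends already cut back for recombination, moved like the recombination genes. It had 1.1, 0.86 and 1.7 CPM in DMSO 15 d, 0.322, 0.38 and 0.222 CPM after X-rays, 7.82, 7.63 and 7.6 CPM in DMSO 35 d removed and 0.232, 0.698 and 0.614 CPM in KU60019 35 d removed. Xrcc5 (ENSMUSG00000026187, chr1:72307421-72394952, plus strand) was instead higher with the inhibitor at 35 d, at 17.6, 19.3 and 20.7 CPM in KU60019 35 d against 15.8, 11.8 and 13.1 CPM in DMSO 35 d. It had 24.3, 23.5 and 24.9 CPM in KU60019 15 d removed against 13.1, 13.1 and 14.6 CPM in DMSO 15 d removed, without overlap. In KU60019 15 d its values were 15.7, 18.3 and 22.2 CPM and in DMSO 15 d 15.3, 16.9 and 15.1 CPM, an overlap that left it uncalled (0.25 ± 0.14 SE). The X-ray libraries had 14.7, 15.3 and 15.3 CPM, within 0.07 of DMSO 15 d on the log2 scale (-0.07 ± 0.14), and the DMSO 35 d removed libraries 20.5, 30.2 and 29.9 CPM. KU60019 35 d removed had 21.2, 20.2 and 21.7 CPM and was called lower than that group (-0.35 ± 0.14), with libraries that overlapped.

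Its partner Xrcc6 (Ku70) had group means of 23.6 (KU60019 15 d) to 33.7 (DMSO 35 d removed) CPM. In the main edgeR fit it passed the test in none of the 10 comparisons planned. In DMSO 35 d removed against DMSO 35 d the main log2 change was 0.33. There DESeq2 (0.37) called it higher, as did edgeR with relative log expression scaling (0.36) or the length trend removed (0.49). So did edgeR without DMSO 35 d removed r705 (0.54). Under limma on log2(TPM + 1), Xrcc6 was lower in KU60019 15 d removed (-0.66). The ligase gene Lig4 ranged over 4.91 (DMSO 35 d removed) to 10.1 (DMSO 15 d) CPM, its cofactor Xrcc4 over 6.8 (DMSO 35 d removed) to 11 (DMSO 35 d) CPM and the nuclease gene Dclre1c (Artemis) over 1.86 (DMSO 35 d removed) to 4.55 (DMSO 15 d removed) CPM. These 3 had their lowest means in the DMSO 35 d removed group. Dclre1c was 1.83, 2.01 and 1.82 CPM in KU60019 15 d removed against 4.32, 4.91 and 4.45 CPM in DMSO 15 d removed. Lig3, a ligase of single-strand and backup end joining, ranged over 8.62 (KU60019 15 d removed) to 16.2 (DMSO 15 d removed) CPM, with 8.78, 8.87 and 8.22 CPM in KU60019 15 d removed and 16.8, 16.1 and 15.7 CPM in DMSO 15 d removed. Nhej1, which bridges the ends beside Xrcc4, ranged over 2.36 (KU60019 35 d) to 11.2 (DMSO 35 d removed) CPM and rose in DMSO 35 d removed (1.94 ± 0.22 SE). Lig3, Xrcc4, Xrcc6 and Dclre1c have exons overlapped on the opposite strand by Rffl, Tmem167, Desi1 and Suv39h2.

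In break signalling, H2afx (ENSMUSG00000049932, chr9:44334694-44336077, plus strand) had 15.6, 25.4 and 17.7 CPM in DMSO 15 d and 28.3, 31.6 and 30.1 CPM in KU60019 15 d. It had 16.9, 16.8 and 16.6 CPM in DMSO 15 d removed, 26.4, 35.8 and 27.1 CPM in KU60019 15 d removed, 20.6, 14.9 and 16.4 CPM in DMSO 35 d and 18.8, 21.8 and 22.6 CPM in KU60019 35 d. The inhibitor groups lay above vehicle without overlap in the 15 d pair and its removed pair, and with overlap at 35 d, where the difference was not called (0.28 ± 0.17 SE). DMSO 35 d removed stood far above the rest at 141, 102 and 91.8 CPM, KU60019 35 d removed at 26.9, 23.8 and 28.2 CPM, and the irradiated libraries at 22.4, 20.7 and 22.3 CPM (0.15 ± 0.17 against DMSO 15 d, not called).

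Trp53bp1 (ENSMUSG00000043909, chr2:121193281-121271407, minus strand) moved the other way. Its values were 36.4, 22.5 and 34.6 CPM in DMSO 15 d and 19.2, 16.5 and 17.4 CPM in KU60019 15 d, and 34.2, 35.8 and 35.2 CPM in DMSO 15 d removed and 16.1, 14.5 and 14.9 CPM in KU60019 15 d removed. DMSO 35 d had 26.1, 40.4 and 36 CPM and DMSO 35 d removed 8.45, 9.93 and 17.7 CPM, the lowest group. All inhibitor libraries of the 15 d arm lay below their vehicle libraries, while KU60019 35 d, at 29.5, 28.3 and 26.2 CPM, overlapped with DMSO 35 d. The difference between the KU60019 effects at 35 d and 15 d was 0.53 ± 0.30 (adjusted p = 0.296). Tubgcp4 overlaps its exons on the opposite strand.

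Mdc1, the scaffold that reads the mark on H2AX, had 22.7, 17.1 and 25.7 CPM in DMSO 15 d, 15.4, 15.3 and 17.8 CPM in KU60019 15 d and 12.2, 12.6 and 14.7 CPM after X-rays. The log2 changes against the shared DMSO 15 d control were -0.44 ± 0.15 with KU60019 and -0.73 ± 0.16 after X-rays. The ubiquitin ligase gene Rnf168 (ENSMUSG00000014074, chr16:32277459-32301434, plus strand) had 17.3, 20.8 and 18.4 CPM in DMSO 35 d, 55.1, 27 and 23.3 CPM in DMSO 35 d removed and 13.8, 13.7 and 13.5 CPM in KU60019 35 d removed. Library r705 of DMSO 35 d removed stood above the other libraries of its group. Rnf8, the ligase that acts before Rnf168, ranged over 4.73 (DMSO 15 d removed) to 18.4 (DMSO 35 d removed) CPM, and its count is uncertain because the model Gm28043 shares exons on the same strand.

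Of the checkpoint genes, Clspn (ENSMUSG00000042489, chr4:126556935-126593903, plus strand), which brings Chek1 to its activating kinase, had 4.24, 3.83 and 6.6 CPM in DMSO 15 d, 1.23, 1.31 and 2.26 CPM after X-rays, 19.7, 18.9 and 21.6 CPM in DMSO 35 d removed and 1.62, 1.36 and 1.82 CPM in KU60019 35 d removed. The decrease after X-rays was -1.64 ± 0.24 (SE, adjusted p = 2.37e-05). Chek1 (ENSMUSG00000032113, chr9:36708482-36727065, minus strand), the kinase itself, did not follow: it had 1.92, 1.33 and 3.29 CPM in DMSO 15 d and 2.36, 2.75 and 2.53 CPM after X-rays (0.21 ± 0.30, not called). It had 1.83, 1.95 and 1.93 CPM in DMSO 35 d, 5.72, 10.4 and 9.46 CPM in DMSO 35 d removed and 2.97, 4.35 and 4.03 CPM in KU60019 35 d removed, so that the last group lay above every DMSO 35 d library. Topbp1, an activator of the kinase ATR, ranged over 16.3 (X-ray) to 46.7 (DMSO 35 d removed) CPM. Chek2, the kinase downstream of ATM, ranged over 9.31 (KU60019 15 d removed) to 14.6 (DMSO 35 d removed) CPM, and Atrip, the partner of ATR, over 0.131 (KU60019 15 d) to 0.375 (DMSO 15 d removed) CPM. Reads of Atrip are uncertain too, since Trex1 shares exons with it on the same strand.

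Parp1 (ENSMUSG00000026496, chr1:180568924-180601254, plus strand) fell with the inhibitor at both times and after X-rays. It had 41, 29.1 and 38.8 CPM in DMSO 15 d, 25.2, 23.5 and 25.6 CPM in KU60019 15 d and 21.4, 19.8 and 20.9 CPM after X-rays. In the 35 d groups it had 30.8, 40.1 and 38.8 CPM with DMSO, 27.6, 26.6 and 24.4 CPM with KU60019 and 19.5, 23.1 and 19.4 CPM in KU60019 35 d removed. Every one of these KU60019 and X-ray libraries lay below all vehicle libraries of its comparison, DMSO 35 d serving for KU60019 35 d removed. The log2 change after X-rays was -0.81 ± 0.15 (SE, adjusted p = 0.000247). In KU60019 15 d removed it was not called, at 23.8, 33.1 and 27.8 CPM against 33.5, 29.9 and 32.6 CPM (-0.18 ± 0.15). Xrcc1, the scaffold of single-strand break repair, ranged over 31.4 (X-ray) to 71.4 (DMSO 35 d removed) CPM, and Msh6 (ENSMUSG00000005370, chr17:87975062-87990892, plus strand), which recognises mismatches, over 17.1 (KU60019 15 d removed) to 26.2 (DMSO 35 d removed) CPM. Msh6 had 22.7, 18.9 and 23.7 CPM in DMSO 15 d, 16.4, 17.6 and 17.9 CPM in KU60019 15 d (-0.33 ± 0.13, adjusted p = 0.0541), 18.2, 19.2 and 20.7 CPM after X-rays, 19.2, 28.5 and 31 CPM in DMSO 35 d removed and 17.4, 18.1 and 16.3 CPM in KU60019 35 d removed.

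**Figure D4:**
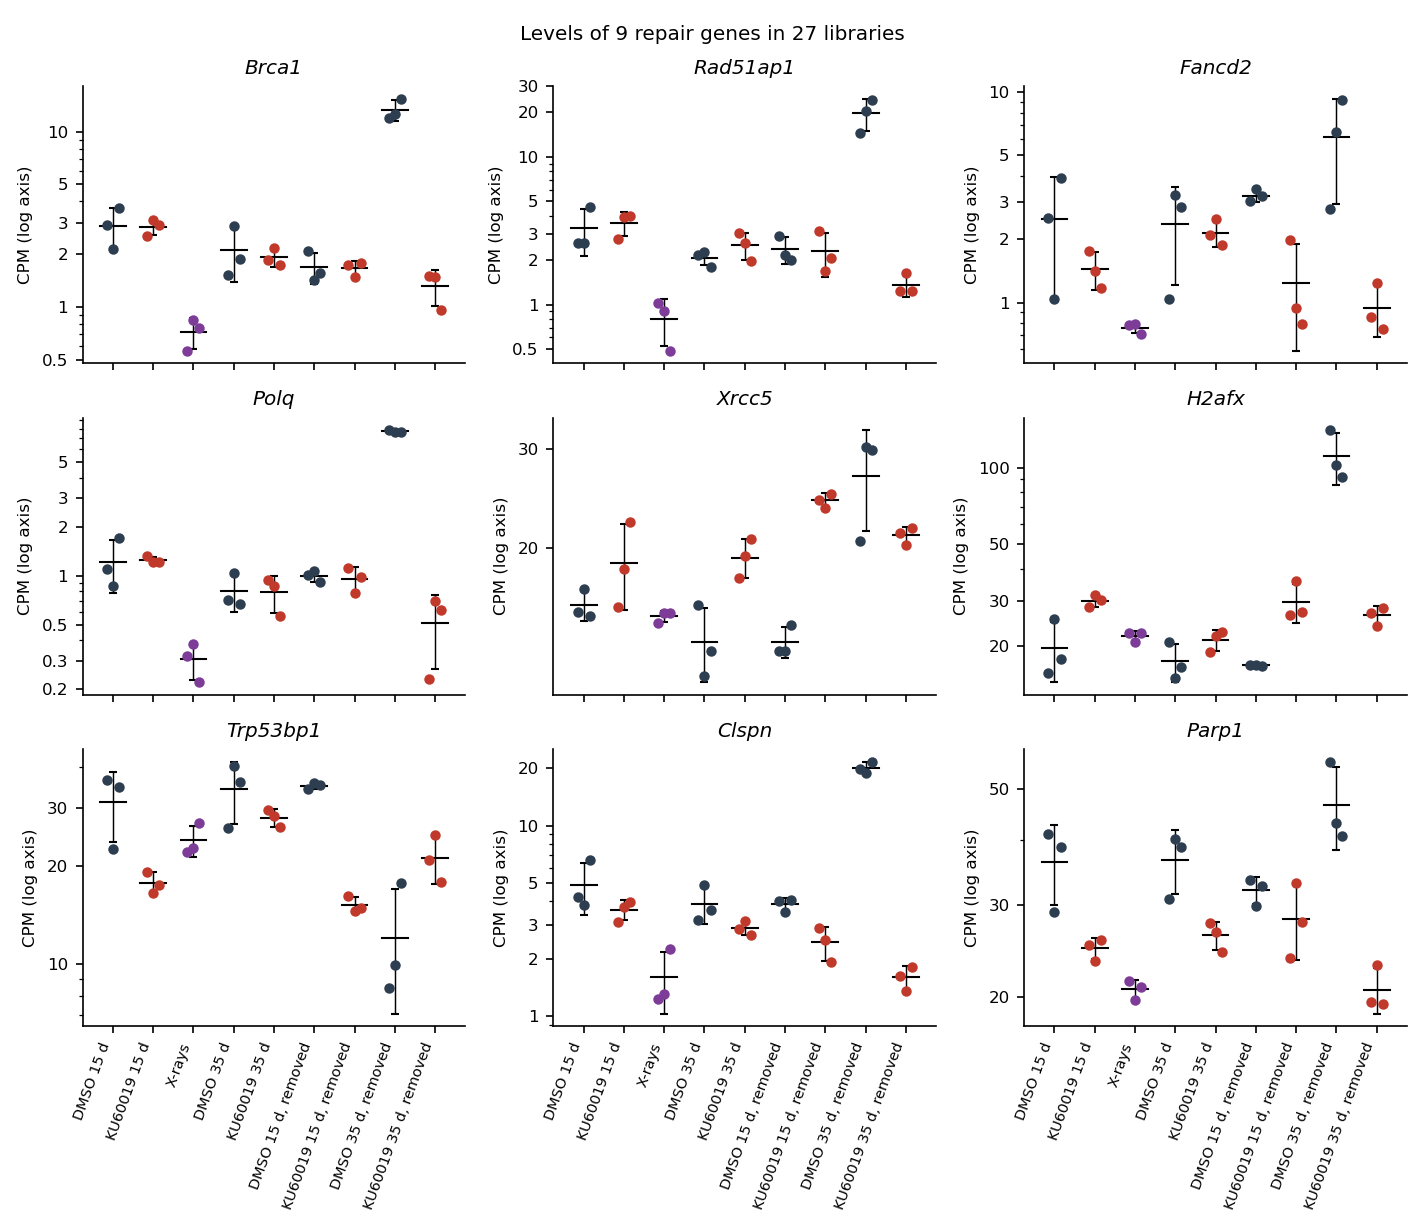
CPM on log axes for 9 of the genes in all 27 libraries; points are libraries, horizontal lines group means and error bars SD (n = 3), with vehicle groups dark, KU60019 groups red and X-rays purple. Brca1, Rad51ap1, Polq and Clspn peak in DMSO 35 d removed, Trp53bp1 is lowest there, and Xrcc5 after X-rays lies near its level in DMSO 15 d.

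The recombination genes were summed to set their level beside that of the mitosis genes. The 15 recombination genes summed to 139.5, 189.7 and 219.6 CPM in DMSO 35 d removed, where mitosis genes were highest, to 93.74, 77.58 and 107.6 CPM in DMSO 15 d, and to 67.55, 71.54 and 76.1 CPM after X-rays, where mitosis genes were lowest. The 8 end joining genes summed to 87.75, 112.3 and 119.2 CPM in DMSO 35 d removed, to 86.93, 80.66 and 88.57 CPM in DMSO 15 d, and to 77.18, 78.49 and 82.93 CPM after X-rays. Between the recombination and mitosis lists the order of all 9 groups was not the same. The recombination sum was 65.83, 71.2 and 62.22 CPM in KU60019 35 d removed, with a mean of 66.42 CPM that lay under that of the X-ray group (71.73 CPM). Rad50, Mre11a and Nbn made up most of this sum, at 15.8, 15.6 and 11.4 CPM there and 17.2, 15.9 and 14.9 CPM after X-rays. Single genes did not all share its order: Brca1, Rad51ap1, Rad54l, Rad54b, Bard1, Brip1 and Exo1 had their lowest mean after X-rays. In KU60019 15 d removed the recombination sum was 76.62, 56.02 and 76.05 CPM, below all DMSO 15 d removed libraries (90.14, 89.84 and 90.38 CPM), while the mitosis sums were 178.0 to 244.0 CPM and 227.0 to 258.6 CPM and overlapped. Library r715 of KU60019 15 d removed had the lowest recombination sum of all libraries.

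**Figure D5:**
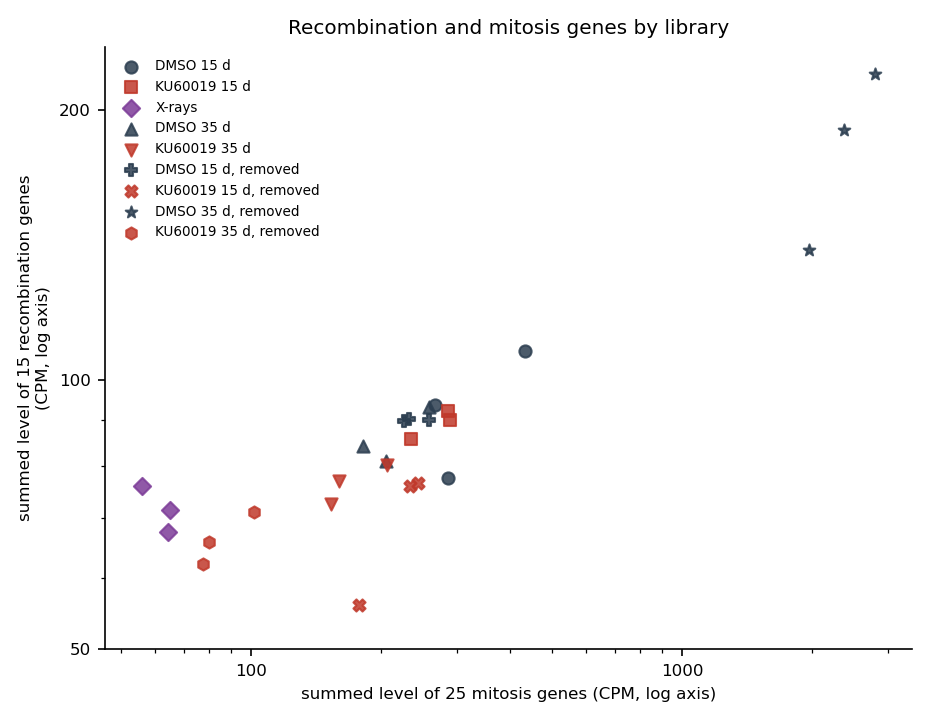
Summed CPM of the 15 recombination genes against summed CPM of 25 mitosis genes, 1 point per library on log axes, marked by group. The 3 DMSO 35 d removed libraries lie at the upper right, at 139.5 to 219.6 CPM, and the X-ray libraries lie farthest left, at 67.55 to 76.1 CPM.

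A further 119 repair genes in 8 lists, which hold none of the 40, were counted in the same fits. After X-rays 13 were higher and 27 lower, a share of 33.6% beside 30.9% of all genes, among them Neil3, a glycosylase of base excision repair (log2 -4.15 ± 0.42 SE), the fork protein gene Timeless (-2.51 ± 0.33) and the mismatch repair gene Msh3 (-0.85 ± 0.14). Of all genes 16.8% were lower and 14.1% higher. By list, 10 of 27 other recombination genes were lower and 2 higher, and 4 of 12 other Fanconi genes were lower and 0 higher. Of 20 other break signalling and checkpoint genes, 5 were lower and 1 higher. Of 14 nucleotide excision repair genes 4 were higher and 0 lower by edgeR, where 6 of the 14 had an unadjusted p under 0.05. KU60019 for 15 d gave 12 higher and 16 lower, a share of 23.5% beside 30.3% of all genes, with Wrn, a helicase of recombination (-1.13 ± 0.17), Uvssa of transcription-coupled repair (-0.93 ± 0.15) and the translesion polymerase gene Rev3l (-1.53 ± 0.27) lower and Ercc1, a nuclease subunit of excision repair, higher (0.85 ± 0.13). At 35 d there were 7 higher and 7 lower, a share of 11.8% beside 18.1% of all genes, among them Cetn2 (0.56 ± 0.11), Polb, the base excision polymerase (0.58 ± 0.13), and Ube2t, the ligase partner of the Fanconi core (0.86 ± 0.21), higher and Slx4, a nuclease scaffold, lower (-0.58 ± 0.14).

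In cells taken off KU60019 after 15 d, 20 of the 119 were higher and 29 lower, a share of 41.2% beside 48.7% of all genes. Mgmt, which removes alkyl groups directly (1.27 ± 0.19), and Mnd1 (1.74 ± 0.29) were higher, and Fan1, a nuclease of crosslink repair (-3.03 ± 0.47), and Rad23b of excision repair (-0.62 ± 0.12) lower. In DMSO 35 d removed against DMSO 35 d, 48 were higher and 24 lower, a share of 60.5% beside 64.1% of all genes, among them the replication ligase gene Lig1 (3.35 ± 0.20), Rpa2 of the single-strand binding complex (2.62 ± 0.19) and Ube2t (2.94 ± 0.22). There, 16 of 27 other recombination genes were higher and 1 lower, while of 11 translesion and direct reversal genes 2 were higher and 7 lower. The shares of all genes were 31.5% higher and 32.6% lower. In KU60019 35 d removed against that group, 21 were higher and 46 lower, a share of 56.3% beside 48.9% of all genes, among them Lig1 (-3.45 ± 0.21), Rpa1 (-1.83 ± 0.13) and Rbbp8, which starts end resection (-2.30 ± 0.16).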

How the data were processed

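Total RNA of 27 samples was sequenced with TruSeq libraries, per the labels' protocols. The authors deposited a table of raw counts per gene, made with featureCounts against mm10 per the submitters' processing notes, and a table of TPM values; no source used here names the aligner, annotation release, versions or strand setting. Gene symbols and coordinates come from GENCODE M21 (GRCm38), which holds 48058 of the 48440 identifiers, and 83.8% of them with the same version. Counts were tested with edgeR 4.0.16 (R 4.3.3): library scaling by TMM, a filterByExpr minimum of 10 counts, 1 quasi-likelihood model over all 9 groups, and Benjamini-Hochberg adjustment over 18684 genes. A gene was called at an adjusted p under 0.05. A standard error is the absolute log2 change over the root of the F statistic. The alternatives were DESeq2 1.42.0, relative log expression scaling, no filter, a replicate block, removal of the trend on gene length, each library left out, and limma 3.58.1 on log2(TPM + 1) for 16350 genes with at least 1 TPM in 3 libraries, 35 members among them. The scripts were tested on simulated data. The members and gene lists were chosen with earlier results of these data known. All 40 members may be named; values per library are given for 14 genes chosen for their roles and for up to 6 members with the lowest adjusted p in each treatment comparison, and of the other repair lists up to 4 genes per comparison are named, and 1 gene is not reported here. Deviations of same-numbered libraries correlated in KU60019 15 d against DMSO 15 d (r from 0.219 to 0.393 across genes), and all 6 calls there held with the replicate block. The main model had no block in any comparison, and whether the numbers mark pairs is not known. Total counts ranged from 20659745 to 50859493 per library. No 2 libraries of a group differed by less than sampling noise (lowest chi-square per gene 7.21).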

Additional observations from a re-analysis of the deposited data

Results flagged for a closer look

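The effect of KU60019 after removal differed from its effect before removal, by the interaction test of edgeR (adjusted p under 0.05), in both arms. In the 15 d arm the log2 differences of the 4 genes were Dclre1c (-1.0), Mre11a (-0.51), Xrcc5 (0.59) and Xrcc1 (0.94). They are 4 of 40 members, where the same test called 25.4% of all genes, and only Xrcc1 kept its call whichever library was left out. They lie in end joining, single-strand break repair and the end-sensing complex.

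In the 35 d arm 28 of 40 genes differed, beside 32.4% of all genes. The recombination and Fanconi genes had Rad54l (-4.65), Rad51ap1 (-4.17), Exo1 (-3.79), Brip1 (-3.53), Brca1 (-3.22), Rad54b (-3.20), Fanci (-3.16), Fanca (-2.70), Fancd2 (-2.56), Bard1 (-2.06), Blm (-1.88), Brca2 (-1.41), Xrcc2 (-1.21) and Mre11a (-0.76). Of the end joining, signalling, checkpoint and single-strand or mismatch repair genes, the differences were Polq (-3.89), Clspn (-3.22), H2afx (-2.36), Topbp1 (-1.39), Nhej1 (-1.34), Chek1 (-1.32), Xrcc1 (-0.99), Rnf168 (-0.98), Xrcc5 (-0.86), Mdc1 (-0.75), Parp1 (-0.69) and Msh6 (-0.57). The 2 genes with a positive difference were Lig4 (0.98) and Trp53bp1 (1.09). These 28 differences all include the DMSO 35 d removed group, whose mitosis genes summed to 1972 to 2806 CPM; the part of that group's proliferation in them was not tested.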

How the results depend on the processing

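Counts of called members are given as higher and lower. For KU60019 15 d against DMSO 15 d (1 and 5), 3 were lower without the filter, 8 with DESeq2 and 3 with the length trend removed. For KU60019 35 d (1 and 1), 0 and 0 were called without the filter, 0 and 5 by limma on log2(TPM + 1), and 0 lower with the length trend removed. For KU60019 15 d removed (5 and 13), limma gave 1 and 21, and KU60019 15 d as control 2 and 8. For KU60019 35 d removed (3 and 31), limma gave 16 lower, KU60019 35 d as control 0 and 4, and DMSO 35 d as control 15 lower. For DMSO 35 d removed against DMSO 35 d (27 and 5), limma gave 11 and 11. For the difference between 35 d and 15 d (0 and 0), DESeq2 gave 1 higher and limma 1 lower. For the difference between removed and 15 d (2 and 2), no filter gave 1 and 0, and limma 1 and 0. For that between removed and 35 d (2 and 26), limma gave 6 and 9. The cause was not tested, except that limma tested 35 of the 40 members. With 1 library left out at a time the ranges were 0 to 3 and 2 to 11 for KU60019 15 d, 0 to 1 and 0 to 2 for 35 d, 5 to 5 and 7 to 15 for 15 d removed, 1 to 4 and 27 to 30 for 35 d removed, 0 to 1 and 12 to 21 for X-rays, 0 to 0 for both in DMSO 35 d against 15 d, 23 to 28 and 4 to 5 for DMSO 35 d removed, and, for the 3 differences, 0 to 1 and 0 to 1, 1 to 3 and 0 to 4, and 1 to 3 and 23 to 27.

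Under limma 12 directions reversed. In KU60019 35 d removed against DMSO 35 d removed these were Xrcc5 (0.13), Chek2 (0.062) and Rad50 (0.003); in DMSO 35 d removed against DMSO 35 d, Parp1 (-0.47), Chek2 (-0.42), Topbp1 (-0.14), Rnf168 (-0.042) and Mdc1 (-0.31); in the difference between removed and 35 d, Parp1 (0.15), Mre11a (0.053), Mdc1 (0.084) and Msh6 (0.26). With the replicate block, Xrcc2 in KU60019 35 d removed (-0.71) and Parp1 in DMSO 35 d removed (0.35) were no longer called, Blm in KU60019 15 d removed was (-0.57), and no other call changed; the members lower were 5, 1, 14, 30 and 17 in the 5 treatment comparisons in the order above. Same-numbered libraries correlated at -0.45 to 0.14 in the other KU60019 comparisons and at -0.0109 to 0.073 for X-rays. With 3 libraries a group, such values cannot show whether the number marks a shared origin. With 3 libraries a group, changes in low genes such as Atrip may go undetected, and 17 of the 40 members share exon sequence with a gene on the opposite strand.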
